A study of Mus musculus with 8 samples.

Results

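The NF-kB family of transcription factors and the IkB family of proteins that regulate it were followed through 10 genes of bone marrow-derived macrophages. The subunit genes were Nfkb1, Nfkb2, Rel, Rela and Relb, and the IkB family genes were Nfkbia, Nfkbib, Nfkbie, Nfkbiz and Bcl3. They were chosen by name, and every non-control probe that carries one of these names was read on all arrays. This gave 15 probes for 10 of the 34844 gene names on the array, among 55681 probes in all. Of these 15 probes, 14 lay well above background on all 8 arrays and stand for 9 genes. The remaining probe, the only one for Rel, was above background on 0 of 8 arrays.

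In macrophages NF-kB dimers wait in the cytoplasm, bound to IkB proteins. Signals from Toll-like and cytokine receptors activate the IkB kinase complex, IkB is phosphorylated and degraded, and the freed dimers switch on cytokine, chemokine and survival genes. Nfkbia is itself among the genes that NF-kB switches on, as are several of the subunit genes, so that their mRNA levels are commonly read as a trace of the activity of the pathway.

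The cells came from 4 male C57BL/6J mice and were transfected with either a control siRNA or siRNA directed at the terminal loop of RNY, the small noncoding Y RNAs. Each siRNA was applied to cells of each mouse, which gives 8 arrays in 2 groups of 4, and both groups went through transfection, so that no untransfected cells are among them. For the siRNA sequence, dose, time after transfection, any stimulus and the age of the mice, no value was at hand in the sources used here. From each sample 0.2 µg of total RNA was labelled, and RNA integrity numbers were 10 in all samples but the control sample of mouse 4, where it was 8. Mouse 1 to mouse 4 are the replicate numbers of the labels. Each level is the log2 processed signal of a probe minus the 75th percentile of those signals on its array, so that a value of 1 is a doubling over that percentile. Levels can be compared between arrays for 1 probe but not between probes.

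As a measure of where in each gene the signal was read, the 60-base probes of the precursor genes and of the main inhibitor are shown, since these members differed most between mice by the test described below. The array design places the Nfkb1 probe A_55_P1968743 at chr3:135254550-135254609 on the minus strand of mouse build mm9, the Nfkb2 probe A_51_P454217 at chr19:46386146-46386285 on the plus strand, and the Nfkbia probe A_51_P295192 at chr12:56590945-56591440 on the minus strand. The Nfkb2 and Nfkbia intervals are longer than the probe, so these probes cross a gap in the genome. Exon and UTR limits of mm9 were not used here.
Nfkb1: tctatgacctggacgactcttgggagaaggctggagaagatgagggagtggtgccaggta
Nfkb2: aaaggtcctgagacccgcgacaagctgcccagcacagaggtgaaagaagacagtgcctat
Nfkbia: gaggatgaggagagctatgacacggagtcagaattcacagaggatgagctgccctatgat

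NF-kB dimers bind a short consensus in DNA, and the upstream windows of 3 members that hold it are shown because they let the promoters of a precursor and of the inhibitors be read side by side. The windows are the 250 bases before the annotated start in RefSeq, on mouse build GRCm38.p6, written in the direction of transcription, with matches to the 10-base NF-kB consensus on either strand in capitals. The Nfkbia window is chr12:55492648-55492897 (minus strand), the Nfkb2 window is chr19:46304487-46304736 (plus strand, the first of its start sites) and the Nfkbie window is chr17:45555450-45555699 (plus strand).
Nfkbia: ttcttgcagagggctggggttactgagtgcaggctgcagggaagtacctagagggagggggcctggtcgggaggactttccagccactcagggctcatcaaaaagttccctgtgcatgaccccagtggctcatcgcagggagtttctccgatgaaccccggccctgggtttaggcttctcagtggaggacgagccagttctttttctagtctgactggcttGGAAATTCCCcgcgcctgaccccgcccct
Nfkb2: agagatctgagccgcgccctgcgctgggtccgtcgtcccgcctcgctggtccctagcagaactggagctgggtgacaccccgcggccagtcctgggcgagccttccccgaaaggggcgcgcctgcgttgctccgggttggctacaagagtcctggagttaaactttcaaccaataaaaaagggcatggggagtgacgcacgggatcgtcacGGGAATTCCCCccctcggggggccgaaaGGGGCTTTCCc
Nfkbie: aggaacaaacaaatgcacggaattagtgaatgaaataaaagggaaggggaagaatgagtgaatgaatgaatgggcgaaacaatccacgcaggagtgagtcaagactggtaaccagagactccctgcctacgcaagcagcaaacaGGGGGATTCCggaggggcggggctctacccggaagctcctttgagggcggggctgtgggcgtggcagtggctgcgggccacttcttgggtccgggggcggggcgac

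The match in Nfkbia lay 29 to 20 bases before the start. Nfkb2 held a pair of matches on opposite strands that overlap, at 39 to 30 and 38 to 29 bases, and a further one at 11 to 2 bases. The match in Nfkbie lay 106 to 97 bases before the start. Upstream windows were at hand for 7 of the 10 members, and none for Nfkb1, Relb and Nfkbiz. Of these 7 genes, 4 (Nfkb2, Rel, Nfkbia and Nfkbie) held a match, whereas Rela, Nfkbib and Bcl3 had none in this window. Over all genes with such a window, 2225 of 27025 (8.23%) held at least 1 match. A match describes the letters and was not tested as a binding site in these cells.

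The first question was whether siRNA against the terminal loop of Y RNAs changed the members. With limma over 26774 kept probes, 0% of all probes and 0 of 14 member probes passed an adjusted p of 0.05 between the siRNA groups, and at an unadjusted p of 0.05 the count was 891 of all probes (3.33%) and 0 of the 14. With mouse as a block, 8.67% of all probes and 0 of the 14 were under 0.05 unadjusted, and 0 of either after adjustment. With mouse as a random block, 0.0112% of all probes and 0 of the 14 passed after adjustment. For 9 genes read by their brightest probe, the median log2 difference was -0.02, with 4 of 9 higher and 5 of 9 lower under the Y RNA siRNA. Over all 19259 genes tested the median was 0.00, with 10065 higher. The median size of the difference, regardless of sign, was 0.02 for the members and 0.06 for all genes. The arrays are of bulk RNA, in which fewer cells of a type and less RNA per cell cannot be told apart.

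**Figure D1:**
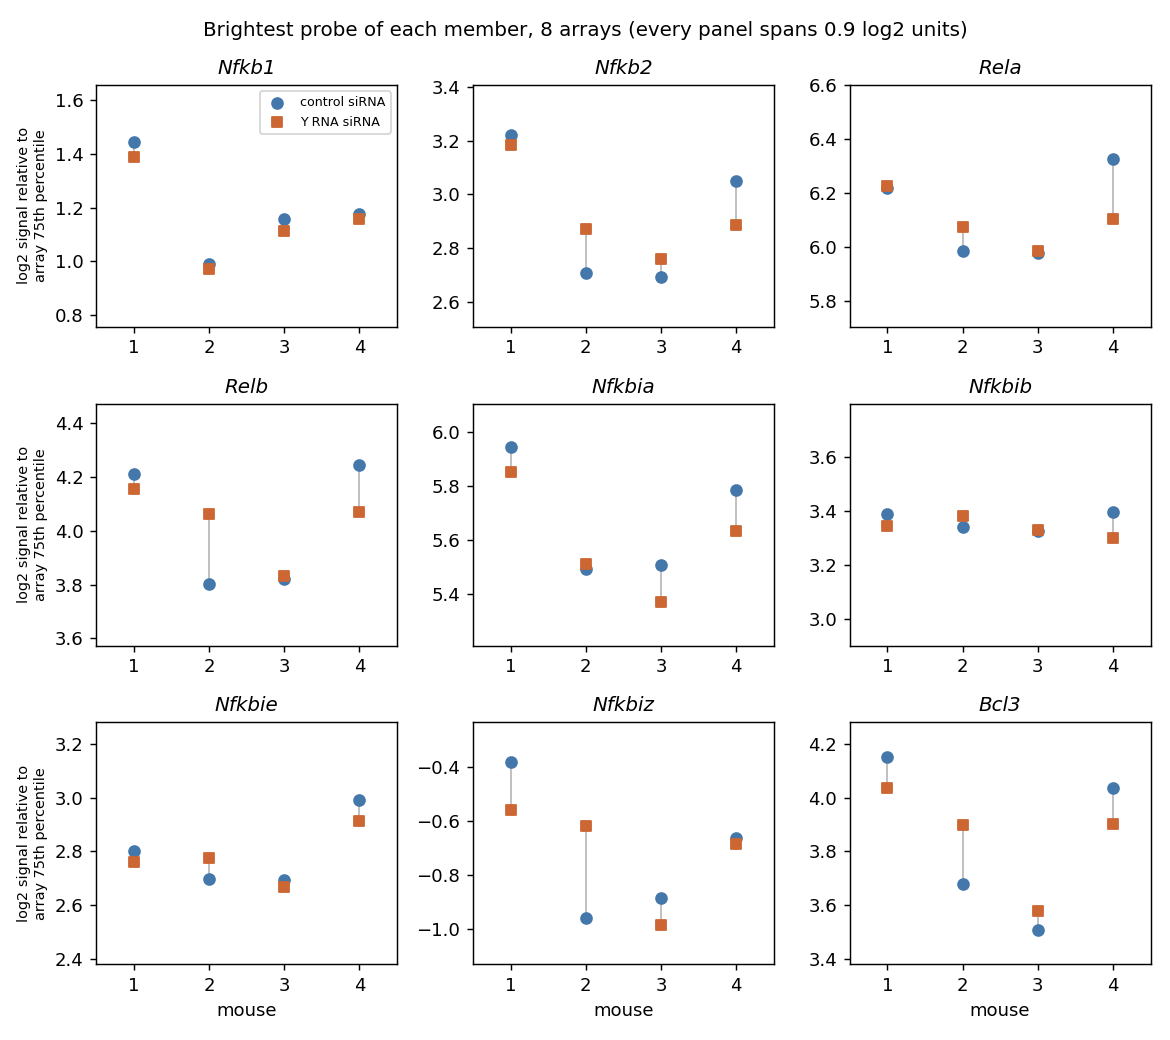
Log2 signal of the brightest probe (vertical axis, scaled to each array's 75th percentile) of the 9 members above background, by mouse (horizontal axis), for the control siRNA (blue circles) and the Y RNA siRNA (orange squares), with a line joining the 2 arrays of a mouse and an axis of the same span in every panel. The groups overlap in all 9 panels, and mice 2 and 3 lie lower than mouse 1 in most of them, Nfkbib being the flattest.

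Rela encodes p65, the subunit that carries the transactivation domain of the classical dimer. Its probe A_55_P1974288 (mm9 chr19:5648070-5648129, plus strand) gave log2 signals of 6.22, 5.98, 5.98 and 6.33 in the control arrays of mice 1 to 4, and 6.23, 6.07, 5.98 and 6.10 under the Y RNA siRNA. The groups overlapped, and the control array of mouse 4, whose RNA integrity number was 8, was the highest. The log2 difference was -0.03 ± 0.10 (SE, n = 4 per group; limma adjusted p 1.00), with a 95% interval of 0.838-fold to 1.14-fold. Without that control array it was 0.04.

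Rel encodes c-Rel, the subunit tied to cytokine genes such as Il12b in macrophages. Its probe A_51_P187461 is placed by the array design at mm9 chr11:23641729-23641743, a stretch shorter than the probe. The signals were -6.75, -6.95, -6.88 and -6.82 with the control siRNA and -6.70, -6.84, -6.12 and -6.83 with the Y RNA siRNA. None of the 8 values was well above background, so that no difference is given for Rel.

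Relb encodes the subunit that pairs with p52 in the alternative pathway, and 3 probes measured it. The brightest, A_51_P389751 (mm9 chr7:20191722-20191781, minus strand), gave 4.21, 3.80, 3.82 and 4.24 with the control siRNA and 4.15, 4.06, 3.83 and 4.07 with the Y RNA siRNA, a log2 difference of 0.01 ± 0.13 (SE, n = 4 per group; limma adjusted p 1.00; interval 0.820-fold to 1.23-fold). The second, A_55_P2168736 (chr7:20191773-20191832), shares 9 bases with it, gaagatggg, and ran from 3.05 (mouse 3) to 3.47 (mouse 1) with the control siRNA and from 3.03 (mouse 3) to 3.40 (mouse 1) with the Y RNA siRNA. In both probes the groups overlapped, mice 1 and 4 stood above mice 2 and 3 in the control arrays, and mouse 2 lay above mouse 3 under the Y RNA siRNA. The third, A_55_P2168741 (chr7:20203058-20203117), lies elsewhere in the gene and its levels stayed between -1.92 and -1.67 on all 8 arrays, with a range of mouse means of 0.16 against 0.36 and 0.39 for the other probes. The mouse pattern of the first pair was therefore not seen in the third probe.

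Nfkb1 encodes p105, the precursor of p50, which lacks a transactivation domain. Probe A_55_P1968743 gave 1.44, 0.99, 1.16 and 1.18 with the control siRNA and 1.39, 0.97, 1.11 and 1.16 with the Y RNA siRNA. Each mouse was a little lower under the Y RNA siRNA, by between 0.02 and 0.06, which is far less than the gap of 0.44 between the highest and lowest mouse mean. Of the 14 member probes 1 differed in the same direction in 4 of 4 mice, against 18.8% of all probes. The log2 difference was -0.04 ± 0.12 (SE, n = 4 per group; limma adjusted p 1.00), and with mouse as a block its interval narrowed from 0.807-fold to 1.18-fold to 0.913-fold to 1.04-fold, with an adjusted p of 0.812. A further probe of the gene, A_55_P1968738 (mm9 chr3:135247621-135247680), gave -0.49, -1.09, -0.87 and -0.97 against -0.71, -1.12, -0.92 and -0.94, again with mouse 1 highest and mouse 2 lowest in both groups.

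Nfkb2 encodes p100, which holds RelB dimers in the cytoplasm until it is processed to p52. Its log2 signals were 3.22, 2.71, 2.69 and 3.05 with the control siRNA and 3.18, 2.87, 2.76 and 2.89 with the Y RNA siRNA. Mouse 1 was highest in both groups and mouse 3 lowest in both. The log2 difference was 0.01 ± 0.14 (SE, n = 4 per group; limma adjusted p 1.00), with an interval of 0.798-fold to 1.27-fold, and its sign turned with normexp, with quantile normalization and in the authors' deposited table.

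Nfkbia encodes IkB alpha, the inhibitor that is degraded on stimulation and made again within the negative feedback loop of NF-kB. The control arrays gave 5.95, 5.49, 5.51 and 5.79, and the Y RNA siRNA arrays 5.85, 5.51, 5.37 and 5.63. The groups overlapped, and mouse 1 was highest in both. Group means were 5.68 ± 0.22 (SD, n = 4) and 5.59 ± 0.20 (SD, n = 4). The log2 difference of -0.09 ± 0.14 (SE; limma adjusted p 1.00) was lower in 3 of 4 mice, and with mouse as a block its interval was 0.861-fold to 1.02-fold (adjusted p 0.660). Single arrays moved it over 1.5 times, to -0.0036 without the control array and -0.18 without the Y RNA siRNA array of mouse 1, to -0.16 and -0.15 without the control arrays of mice 2 and 3, and to -0.057 without that of mouse 4. Without the Y RNA siRNA array of mouse 3 it was -0.018.

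Nfkbib encodes IkB beta, a slower inhibitor of the classical dimers, and its brightest probe was the steadiest of the members' brightest probes. This probe, A_55_P1989733 (mm9 chr7:29544160-29544219, minus strand), gave 3.39, 3.34, 3.32 and 3.40 with the control siRNA and 3.34, 3.38, 3.33 and 3.30 with the Y RNA siRNA. No array stood apart, and the mouse means spanned 0.04. The log2 difference was -0.02 ± 0.05 (SE, n = 4 per group; limma adjusted p 1.00), with an interval of 0.909-fold to 1.06-fold. Of the other probes, A_66_P120882 (chr7:29545252-29546647) gave -0.05 ± 0.07 and the dim A_55_P2051666 (chr7:29543270-29543329) gave 0.10 ± 0.13. The mouse means of the dim probe spanned 0.34, so the steadiness of the gene rests on its brighter probes.

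Nfkbie encodes IkB epsilon, whose probe A_51_P235123 lies at mm9 chr17:45700000-45700059 on the plus strand. The levels were 2.80, 2.70, 2.69 and 2.99 with the control siRNA and 2.76, 2.77, 2.67 and 2.91 with the Y RNA siRNA. Mouse 4, not mouse 1, was highest in both groups, which no other member gene showed by its brightest probe. The log2 difference was -0.02 ± 0.09 (SE, n = 4 per group; limma adjusted p 1.00; interval 0.860-fold to 1.13-fold).

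Nfkbiz and Bcl3 encode the nuclear IkB proteins, IkB zeta and Bcl-3, which act on DNA-bound p50 and p52 and do not hold NF-kB in the cytoplasm. The Nfkbiz probe A_55_P2039086 (mm9 chr16:55817859-55817918, minus strand) gave -0.38, -0.96, -0.89 and -0.66 against -0.56, -0.62, -0.98 and -0.68, a log2 difference of 0.01 ± 0.15 (SE, n = 4 per group; limma adjusted p 1.00; interval 0.798-fold to 1.27-fold). For Bcl3, probe A_55_P2066116 (chr7:20393826-20393885, minus strand) gave 4.15, 3.68, 3.51 and 4.04 against 4.04, 3.90, 3.58 and 3.90, a log2 difference of 0.01 ± 0.16 (interval 0.779-fold to 1.30-fold). Both groups overlapped for each gene, with mouse 1 highest and mouse 3 lowest on the mouse means. Bcl3 had the widest spread among the brightest probes of the 9 members above background, with an SD of 0.23 over the 8 arrays.

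The precision of these values can be read from their intervals. All 14 member probes had a 95% interval within 1.5-fold either way, as did 83.8% of all kept probes, and with mouse as a block it was again 14 of 14, against 89.2% of all probes. The control and Y RNA siRNA arrays of 0 of the 14 member probes failed to overlap, against 2.39% of all probes. These figures describe the mRNA read by single probes at the time sampled, and a change shared by the members was not estimated. They do not bear on the protein levels or nuclear location of the subunits, through which NF-kB is mainly regulated.

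**Figure D2:**
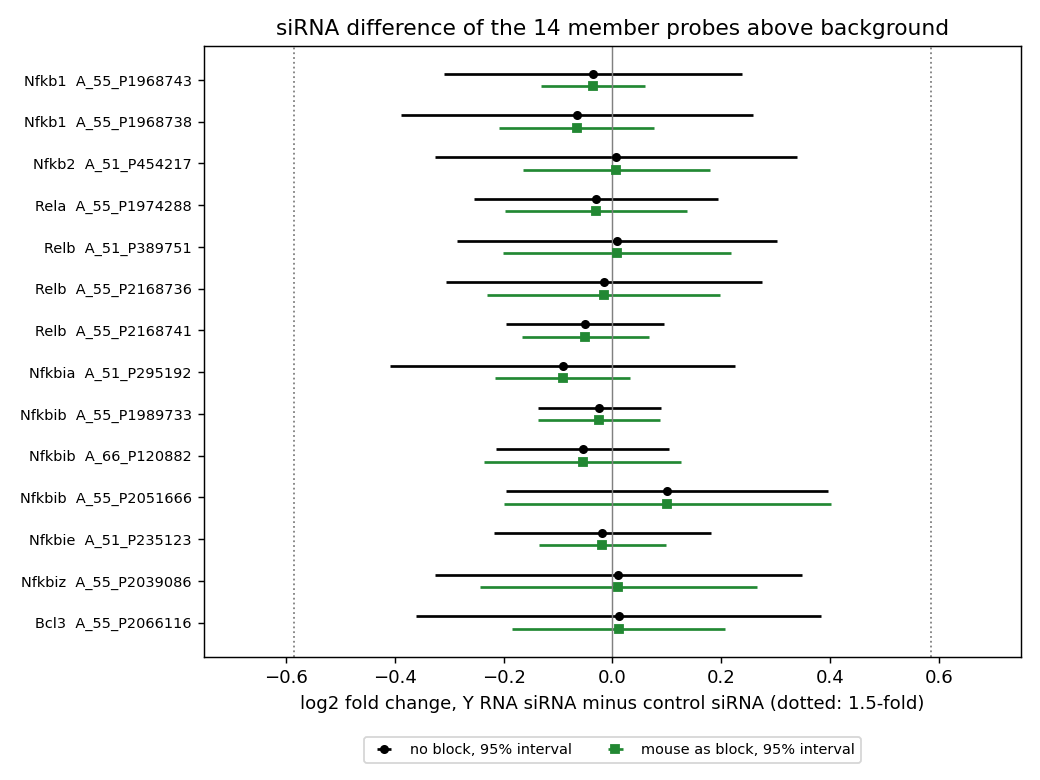
Log2 difference between the Y RNA siRNA and the control siRNA (horizontal axis) for the 14 member probes above background, with 95% intervals from limma without a block (black) and with mouse as a block (green). All 14 intervals of each kind lie between the dotted lines at 1.5-fold and include 0.

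The larger spread lay between mice. The 2 arrays of a mouse lay side by side on the slide, so mice cannot be told apart from slide position. Among 9 member genes mouse 1 had the highest mean in 8 and mouse 4 in 1 (Nfkbie), where mouse 1 was highest for 36.4% of all genes. Mouse 2 or mouse 3 was lowest in 9 of 9, against 50.5% of all genes. By probe, mouse 1 was highest for 12 of 14 members and for 37.4% of all kept probes, and mouse 4 for 2 of 14 and 22.8%. Mouse 2 was highest for 0 of 14 and 12.7%, and mouse 3 for 0 of 14 and 27.1%. Both arrays of 1 mouse were the 2 highest of the 8 for 7 of 14 member probes, against 34.6% of all probes. The median range of the mouse means was 0.44 on the log2 scale for the members and 0.25 for all genes. Members that are regulated together are not independent of each other, so these counts are a description.

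By gene the range of mouse means was widest for Bcl3, at 0.55 (1.47-fold), followed by Nfkb2 at 0.48 (1.39-fold), Nfkbiz at 0.47, Nfkbia at 0.46 and Nfkb1 at 0.44. Relb ranged over 0.36, Nfkbie over 0.27, Rela over 0.24 and Nfkbib over 0.04. The moderated F-test of limma, which sets the spread between mice against that between the 2 arrays of a mouse, called 814 of all probes (3.04%) and 0 of the 14 member probes at an adjusted p of 0.05. The lowest adjusted p values were 0.0605 for Nfkb1 probe A_55_P1968743, 0.0718 for Nfkbia and 0.0876 for the further Nfkb1 probe. Leaving out any 1 array lowered the count over all probes to between 65 and 322, and leaving out mouse 1, 3 or 4 to 2, 124 or 294, with 0 member probes called each time. Unadjusted, 6 of 14 member probes were under 0.05, against 27.8% of all probes. Under 3 alternatives this result did not hold. Normexp background correction called 16.2% of all probes and 4 member probes, which were those of Nfkbia (adjusted p 0.0214) and Nfkb2 (0.0473) and both of Nfkb1 (0.0275 and 0.0284). The calls from the authors' deposited table were 7.6% of all probes and 3 member probes, with adjusted p values in limma of 0.0291 for Nfkbia, 0.0420 for Nfkb2 and 0.0490 for Nfkb1 probe A_55_P1968743. Where all 8 arrays had to lie above background, 4.88% of all probes and that Nfkb1 probe (0.0454) were called.

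The mouse order moved with the scale of the arrays. The 75th percentile of the log2 signal was lowest on both arrays of mouse 1, at 9.04 and 9.04, and next lowest on those of mouse 4, at 9.20 and 9.19, while mice 2 and 3 lay between 9.27 and 9.34. Without any scaling, mouse 1 was highest for 4 of the 9 member genes and lowest for 3, and the median range of their mouse means fell from 0.44 to 0.21. With quantile normalization and in the authors' deposited table mouse 1 was again highest for 8 of 9, with median centring for 7 and with normexp for 6. The part of the array scale in the mouse order was not tested.

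**Figure D3:**
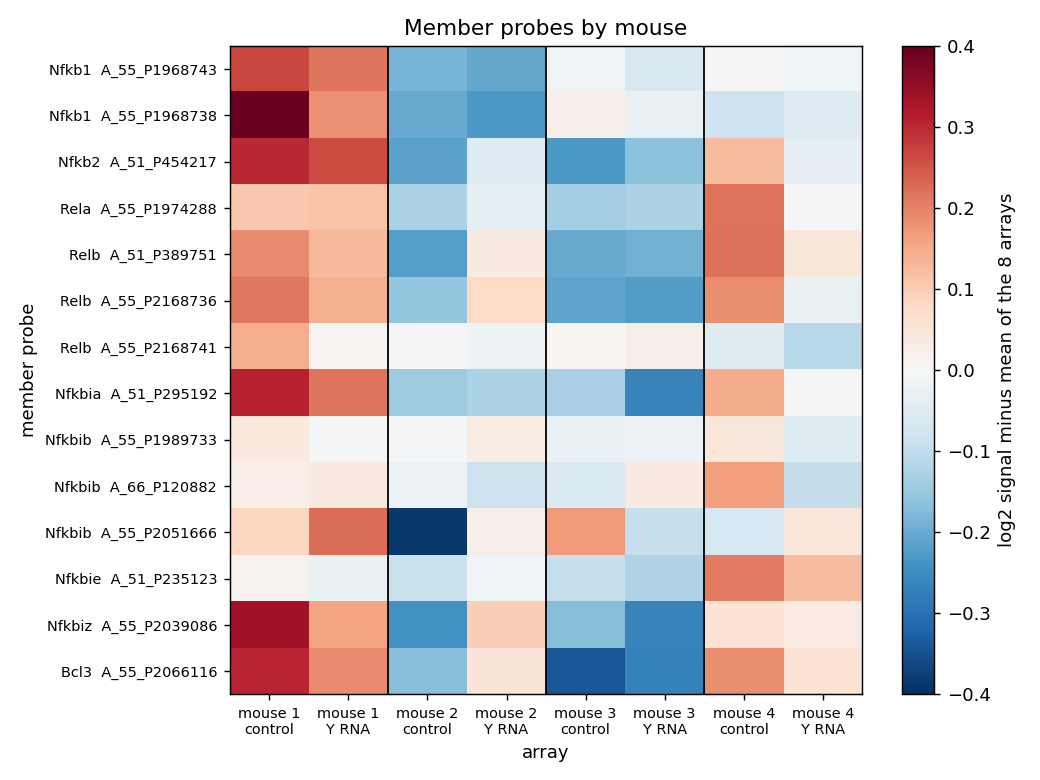
Deviation of each array (columns, grouped by mouse) from the mean of the member probe (rows) on the log2 scale, for the 14 probes above background. Columns of mouse 1 are above the mean for most probes and columns of mouse 3 below it, and the rows of the brightest Nfkbib probe and of the third Relb probe are the flattest.

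The genes around the members were read from 4 lists. Of 14 receptor and adaptor genes, 13 were tested, with 6 higher and 7 lower under the Y RNA siRNA and a median log2 difference of -0.03. Of 21 kinase-complex and adaptor genes, 21 were tested, with 12 higher, 9 lower and a median of 0.01. Of 16 brakes on the pathway, 16 were tested, with 4 higher, 12 lower and a median of -0.03. Of 30 known NF-kB target genes, 24 were tested, with 14 higher, 10 lower and a median of 0.01. Over all genes, 10065 of 19259 were higher under the Y RNA siRNA. No gene of these lists passed an adjusted p of 0.05 between the siRNA groups in limma, with or without the mouse block, and 2 brakes and 2 targets were under 0.05 unadjusted, against 3.22% of all genes. With mouse as a block 2 receptors, 1 brake and 6 targets (Ccl5, Marco, Saa3, Traf1, Il10 and Lcn2) were under 0.05 unadjusted, against 8.53% of all genes.

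The target with the largest value was Ccl5, the chemokine RANTES. Its levels were 4.56, 5.04, 4.72 and 5.45 with the control siRNA and 5.43, 5.75, 5.86 and 6.20 with the Y RNA siRNA. Each mouse was higher under the Y RNA siRNA although the groups overlapped at mouse 4 of the control and mouse 1 of the other group. The log2 difference was 0.87 ± 0.22 (SE, n = 4 per group), with a limma adjusted p of 1.00 without a block and 0.325 with mouse as a block. Marco, a scavenger receptor, likewise had a higher value in 4 of 4 mice, with a log2 difference of 0.83 ± 0.36 and the same adjusted p values.

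Tnfaip3 encodes A20, an ubiquitin-editing enzyme that shuts off NF-kB signalling and is itself an NF-kB target. It gave 2.40, 2.17, 2.19 and 2.28 with the control siRNA and 2.18, 2.07, 1.95 and 2.04 with the Y RNA siRNA, a log2 difference of -0.20 ± 0.08 (limma adjusted p 1.00, with the block 0.438). Each mouse was lower, but the highest Y RNA siRNA array, of mouse 1, lay above the lowest control array, of mouse 2. Tnip3, which encodes a partner of A20, gave -0.17 ± 0.07 for its brighter probe. Among the other genes named by rank, the receptor Tnfrsf1b gave 0.16 ± 0.11, the kinase Irak4 -0.12 ± 0.09 and the IkB kinase gene Chuk 0.06 ± 0.07. Leaving out 1 array or 1 mouse gave from 0.09 to 0.24 for Tnfrsf1b, from -0.16 to -0.05 for Irak4 and from 0.03 to 0.12 for Chuk. Smaller values were found for Tab1 (-0.05 ± 0.05), Tab2 (0.07 ± 0.08), Tnfrsf1a (0.04 ± 0.05) and Nfkbid (-0.06 ± 0.05), and Cd40 gave -0.13 ± 0.12. The same omissions gave from 0.02 to 0.13 for Tab2 and from -0.22 to -0.05 for Cd40. The targets Lcn2 and Il10 gave 0.22 ± 0.14 and -0.16 ± 0.10, and the kinase Map3k7 gave 0.04 ± 0.05. Btrc, a subunit of the ubiquitin ligase that marks IkB for degradation, gave -0.65 ± 0.50, and -0.08 without the Y RNA siRNA array of mouse 1.

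**Figure D4:**
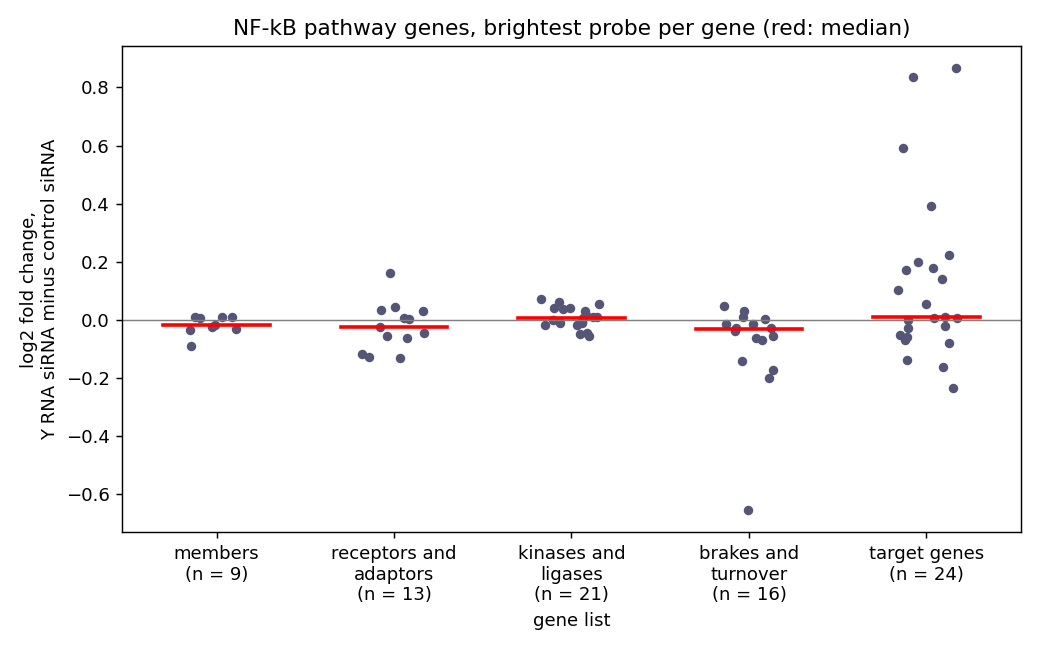
Log2 difference between the Y RNA siRNA and the control siRNA (vertical axis) for each tested gene of the members and of the 4 pathway lists (columns, 1 point per gene, spread sideways for legibility), with a red line at the median of each list. The 9 members lie between -0.09 and 0.01, and Ccl5 and Marco are the highest points of the target genes.

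Several inducible targets were not measured, since Il6, Il12b, Ptgs2, Csf2 and Csf3 were well above background on 0 of 8 arrays, and Cxcl1 on 3. Between mice 5 of the 24 targets passed the F-test (Il1b, Ccl2, Vcam1, Saa3 and Marco, named after their values were seen), against 3.35% of all genes, and 0 genes of the receptor, kinase and brake lists did. With normexp 16 of 24 targets passed, against 16.2% of all probes. So did 2 of 13 receptors (Tlr2 and Cd40), 3 of 21 kinase-list genes (Map3k14, Birc3 and Ikbke) and 1 of 16 brakes (Tnip1). The shares of the receptor, kinase and brake lists were not above that of all probes. Of the targets 12 passed in the authors' deposited table, with Birc3, Ikbke, Tnip1 and 0 receptors, against 7.6% of all probes. Without the control array of mouse 1 the brake Btrc passed. Mouse 1 then rests on its Y RNA siRNA array alone, where Btrc gave -3.53, against -1.05 on the control array left out. The 5 became 0 without mouse 1, 3 or 4 or without either array of any of these mice, and 3 without the control array of mouse 2. Ccl2, the monocyte chemokine MCP-1, gave 1.54, 3.86, 4.69 and 3.13 in the control arrays and 1.66, 3.13, 4.79 and 3.52 under the Y RNA siRNA, so that mouse 1 was lowest and mouse 3 highest. This is the reverse of the order of Nfkb2, Nfkbia and Bcl3. The targets did not share the same order. Tnf also had mouse 1 lowest and mouse 3 highest in both groups, whereas Cd83 had mouse 1 highest and mouse 3 lowest in both. Il1b, which encodes the cytokine interleukin-1 beta, was well above background on only 6 of 8 arrays and is not among the 21 targets tested where all 8 arrays are required, so no order of mice is read from it.

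Markers of the labelled cell type were read on the same arrays. All 8 macrophage markers (Csf1r, Adgre1, Cd68, Itgam, Lyz2, Mertk, Fcgr1 and Cd14) were well above background on 8 of 8 arrays, and their summed level, in multiples of each array's 75th percentile, ran from 1389 to 1626 with the control siRNA and from 1369 to 1625 with the Y RNA siRNA. Of the markers of other cells, 3 of 7 dendritic, 5 of 8 neutrophil, 4 of 10 lymphocyte and 5 of 7 fibroblast genes were tested. The genes Ms4a1, Cd3d, Cd3g, Ly6g, Flt3, Xcr1 and Clec9a were among those not kept, whereas Siglech, Itgax, Elane, S100a8, S100a9, Camp, Cd79a, Cd79b, Cd3e, Nkg7, Col1a1, Col1a2 and Dcn were above background on 8 of 8 arrays. Summed levels ran from 93.5 to 104 and from 89.8 to 97.9 for the dendritic list in the control and Y RNA siRNA groups, of which Siglech gives most. They ran from 4.09 to 6.24 and from 4.50 to 5.98 for the neutrophil list, from 6.34 to 8.48 and from 7.60 to 8.09 for the lymphocyte list, and from 0.81 to 2.84 and from 1.09 to 2.97 for the fibroblast list. As levels cannot be compared between probes, these sums compare arrays within a list and give no relative amounts of cell types.

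Markers also differed between mice beside the members. The macrophage sum was highest in mouse 1 (1626 and 1625 with the control and the Y RNA siRNA) and lowest in mouse 3 (1389 and 1369), as were the mouse means of Nfkb2, Nfkbia, Nfkbiz and Bcl3. By their mouse means 5 of the 8 macrophage markers (Csf1r, Adgre1, Itgam, Lyz2 and Fcgr1) had mouse 1 highest and mouse 3 lowest. The share of all genes with both was not counted. Mouse 1 was highest for 6 of the 8, against 36.4% of all genes. The markers carry the same array scaling as the members and were not read without it. Itgax, which encodes CD11c, gave 0.47, 2.23, 3.00 and 2.21 in the control arrays and 0.46, 2.02, 2.84 and 1.98 under the Y RNA siRNA, lowest in mouse 1 and highest in mouse 3, with an adjusted p between mice of 0.00296 in limma. S100a8, of the neutrophil list, also passed that test, with the same lowest and highest mouse, and Mpo passed it but was above background on only 6 of 8 arrays. Itgax and S100a8 thus had their lowest level in the mouse where Nfkb2, Nfkbia, Nfkbiz and Bcl3 had their highest. Not all markers of their lists did so. Of the 2 dendritic markers above background on all 8 arrays, mouse 1 was lowest in 1 and highest in the other. Of the 4 such neutrophil markers, mouse 1 was lowest in 3 and mouse 3 highest in 3, with mouse 3 lowest in 1. Over all genes, mouse 3 was highest for 27.4%. The fibroblast sum was also lowest in mouse 1, and highest in mouse 4. The part of cell composition in the mouse order of the members was not tested.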

How the data were processed

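RNA of 8 macrophage samples, labelled in 1 colour (Cy3), was measured on Agilent mouse arrays of design 028005. The deposited scanner files hold linear intensity per spot from Feature Extraction 10.7.3.1 with protocol GE1_107_Sep09 and mm9 probe positions, per the file headers. The processed intensity is background-subtracted and not normalized between arrays, per the file headers. The authors' deposited table holds log2 values of unstated method and centring, and served as an alternative only.

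Control spots (3671 of 62976) and spots marked as outliers were left out, and 0 spots were saturated. Log2 processed signals minus the 75th percentile of the array were averaged over the spots of a probe. A probe was kept where 4 or more of the 8 arrays held it well above background, and 46 with an outlier spot were dropped from tests, which left 26774. The share of spots well above background was 48.7% to 50.7%, the number of arrays limits the precision, and intensities carry no counting interval.

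Groups were compared per probe with lmFit and eBayes of limma 3.58.1 in R 4.3.3, as two-sided tests, and p-values were adjusted by Benjamini-Hochberg over the kept probes (threshold 0.05). Mice were compared by a moderated F-test with siRNA in the model. Both were run on simulated arrays with planted changes. Most simulated probes had no spread between mice, so the fit without a block was not tried under the spread seen here. The series design gives 2 conditions on 4 mice, and the deviations of same-numbered arrays correlated (r of 0.587, 0.142, 0.533 and 0.248 for mice 1 to 4, each over 0.1), so replicate numbers were taken as mice. For mouse 2 the highest correlation with an array of another mouse, 0.200, was above that of its own pair. All arrays lay on 1 slide. Slide columns 1 and 3 held the Y RNA siRNA and columns 2 and 4 the control, so an effect of column cannot be told apart from the siRNA.

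Members and lists were chosen with earlier results of these data known. All members are named. From each pathway list up to 4 genes with the smallest unadjusted p are named, each by its brightest probe, and beside them genes singled out after their values were seen. Alternatives were the mouse as a fixed or random block, normexp with offset 50, quantile and median scaling, the deposited table, no or a stricter filter, gene-level values, the slide row, and leaving out arrays or mice. The unscaled signals and leaving out single arrays in the mouse test were added after seeing the data. Promoter windows are those of RefSeq for GRCm38.p6, and no coordinates were converted between builds.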

Additional observations from a re-analysis of the deposited data

Results flagged for a closer look

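Within each siRNA group of 4 arrays, the gap of the highest or lowest array to its nearest neighbour, as a share of the range of the group, was set against Dixon's 95% critical value for 4 values. Of 62 groups (members and named pathway genes) 4 lay above it, and chance alone passes about 1 in 20. No member was among the 4. The share was 0.959 for Btrc, a ubiquitin ligase subunit that marks IkB for degradation, under the Y RNA siRNA, where mouse 1 gave -3.53 and the other mice between -1.26 and -1.17. Without that array the log2 difference of Btrc was -0.08 in place of -0.65, and the mean of both its probes gave -0.29. The share was 0.926 for Map3k7 under the Y RNA siRNA, with mouse 3 highest at 3.44. It was 0.875 for Il10 with the control siRNA, with mouse 1 highest at -1.56, and 0.869 for Lcn2 under the Y RNA siRNA, with mouse 1 lowest at -1.62.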

How the results depend on the processing

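Between the siRNA groups 0 probes were called in all alternatives run except the random mouse block, which called 3 probes and 0 members. The mouse as a fixed block, with the pairing of arrays by mouse, called 0 probes and changed no call. Over every alternative the lowest adjusted p of a member was 0.660 and the largest log2 difference in size was 0.22. Signs near 0 turned. Normexp gave -0.0079 for Nfkb2, 0.016 for Rela and -0.0063 for Bcl3. Quantile normalization gave -0.0090 for Nfkb2. Median centring gave 0.013 for Relb A_55_P2168736, 0.0050 for Nfkbib and 0.011 for Nfkbie. The deposited table gave -0.018 for Nfkb2, 0.017 for Rela, 0.021 for Nfkbib A_66_P120882 and -0.0085 for Bcl3. The mean of probes gave -0.019 for Relb, 0.0072 for Nfkbib and -0.0089 for Map3k7. Leaving out an array or a mouse gave -0.11 to 0.048 for Nfkb1 A_55_P1968743, -0.14 to 0.055 for Nfkb1 A_55_P1968738, -0.079 to 0.11 for Nfkb2, -0.18 to -0.0036 for Nfkbia, -0.080 to 0.036 for Rela, -0.075 to 0.083 for Relb A_51_P389751, -0.099 to 0.056 for Relb A_55_P2168736, -0.11 to 0.013 for Nfkbib A_66_P120882, -0.011 to 0.22 for Nfkbib A_55_P2051666, -0.063 to 0.047 for Nfkbie, -0.10 to 0.12 for Nfkbiz and -0.10 to 0.11 for Bcl3. Calls between mice moved more: 814 probes became 4341 with normexp, 2036 in the deposited table, 123 without the filter on dim probes and 1198 of 24542 where all 8 arrays had to be above background. Member probes called went from 0 to 4, 3 and, with probes above background on all 8 arrays, 1. Receptor, kinase and brake genes called went from 0 to 6 with normexp and 3 in the deposited table. Of the targets, 5 became 16 with normexp, 12 in the deposited table and 0 with no filter. Leaving out an array or a mouse called 2 (without mouse 1) to 781 probes, 0 members and 0 to 6 targets, and 0 probes between the siRNA groups. The cause was not tested. With 4 arrays a group, the interval of Bcl3 was 0.779-fold to 1.30-fold, and smaller differences of it were not resolved.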

Other observations

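Outside the members, the genes whose levels ran most like those of Nfkbia and Bcl3 over the 8 arrays were ranked among 12236 genes. The ranking is a description without a p. The arrays share mice and scaling, so that high values are common. For Nfkbia they were Polg2 (Pearson r 0.996), Rpl37 (0.991) and Vipr1 (0.990). Vipr1, a receptor for vasoactive intestinal peptide, gave 2.67, 1.44, 1.36 and 2.09 in the control arrays of mice 1 to 4 and 2.31, 1.56, 1.16 and 1.80 under the Y RNA siRNA, with mouse 1 highest and mouse 3 lowest in both groups. For Bcl3 they were Atg13 (0.992), Klk1b8 (0.990) and Irf1 (0.988). Irf1, an interferon regulatory factor, gave 4.72, 4.27, 4.12 and 4.61 against 4.71, 4.46, 4.19 and 4.53, again with mouse 1 highest and mouse 3 lowest.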
